A study of Mus musculus with 12 samples.

Results

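The copy number changes of renal cell carcinomas and malignant lymphomas were compared among tumours of mice that had received ferric nitrilotriacetate (Fe-NTA), an iron chelate. All tumours of treated mice entered the comparison, 9 of the 12 in the series, chosen by the tumour type and treatment in their labels. The carcinomas were KO1080, KO1097 and KO1134 from Mutyh knockout mice and WT1179 from a wild-type mouse. The treated lymphomas were KO1077 and KO1111 from knockouts and WT1113, WT1114 and WT1121 from wild types, so each name gives the genotype and the number of the animal. Every mouse was a C57BL/6 male and was killed at about 120 weeks of age. Fe-NTA went into the abdominal cavity on 5 occasions a week for 12 weeks, at 3 mg iron per kg in week 1 and 5 mg in the other 11. Each treated group began as 20 mice, and the labels do not say how the tumours were chosen among them. The 3 lymphomas of untreated mice enter only where they are named.

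Fe-NTA is excreted into the proximal tubules of the kidney, where its iron drives radical reactions that damage lipids and DNA, and rodents given it repeatedly develop renal carcinoma. Mutyh is the glycosylase that removes adenine paired with 8-oxoguanine, so its loss leaves G:C to T:A changes unrepaired. In comparative genomic hybridisation, tumour and reference DNA compete for the same probes, and the log2 ratio falls below 0 where the tumour has lost copies and rises above 0 where it has gained them. In a pure diploid tumour the loss of a copy would read -1 and the gain of a copy 0.58, and normal cells or tumour cells without the change pull the ratio towards 0. Mouse autosomes are telocentric, so a change of a chromosome arm is a change of the chromosome.

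Each array read 161460 autosomal probes at a median distance of 10.9 kb against DNA of normal C57BL/6 kidney, and 2791 of them in 8 fixed intervals were left out of the calls. The spread of differences between neighbouring probes, scaled to a single probe, had an SD between 0.115 and 0.128 log2 in the carcinomas and between 0.122 and 0.171 in the treated lymphomas. All 4 carcinomas lay on slide 1, lymphomas KO1077, KO1111, WT1113 and WT1114 on slide 2, and WT1121 on slide 3 with the untreated lymphomas, so tumour type and slide cannot be told apart. The deletion probe of Mutyh read between -3.21 and -2.39 in the 5 knockout tumours and between -0.76 and 0.01 in the 4 wild types, as labelled. Rearranged antigen receptor genes, which mark lymphocytes, left focal losses in 5 of 5 treated lymphomas and in 0 of 4 carcinomas. No marker of kidney epithelium can be read from DNA copy number. Lymphomas WT1113 and WT1114 shared much of their profile, with a correlation of 0.75 over 2345 bins of 1 Mb, the highest of any pair. Both also had a small loss on chromosome 12 starting at position 100122066 (build mm9), of 0.251 Mb at -0.79 in WT1113 and 0.349 Mb at -0.59 in WT1114. The labels give them separate animal numbers, but they may not be independent.

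The carcinomas mainly lost sequence, and the treated lymphomas with changes mainly gained it. A stretch was called where its mean lay at least 0.25 from the most common level of the array over at least 5 probes. KO1080 had lost 10.5% of the autosomal sequence, KO1097 18.8%, KO1134 34.9% and WT1179 14.8%. In the lymphomas loss covered 0% in KO1077, KO1111 and WT1121, 0.593% in WT1113 and 0.0147% in WT1114. The highest lymphoma lay far below the lowest carcinoma, and this held among the knockouts and among the wild types. The mean was 19.7% ± 10.6 (SD, n = 4) against 0.122% ± 0.264 (SD, n = 5), a difference of 19.6 percentage points. The two-sided exact permutation p was 0.00794, the smallest that 126 splits allow, and 0.0185 after Benjamini-Hochberg adjustment over 7 measures per tumour. Without 1 of the 9 tumours in turn the difference was 14.6 to 22.7 percentage points and the adjusted p 0.0417 to 0.0667. The adjusted p was 0.0417 without any 1 carcinoma, 0.05 without WT1114 and 0.0667 without any other lymphoma. Without a lymphoma the exact p was 0.0286, the smallest that 4 against 4 tumours allow, and the difference stayed at 19.6 to 19.7 percentage points. The lost call there follows from the fewer splits and cannot tell whether the result hangs on a lymphoma. With WT1113 and WT1114 counted as 1 tumour the difference was 19.7 percentage points, with the same smallest exact p of 0.0286 (adjusted 0.05).

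Gain went the other way on average but was not separated by the test. KO1080 had gained 0%, KO1097 0.0263%, KO1134 0.549% and WT1179 5.68%. Among the lymphomas gain covered 0% in KO1077, 0.616% in KO1111, 8.62% in WT1113, 8.73% in WT1114 and 4.01% in WT1121. The groups overlapped, with WT1179 above 3 of the 5 lymphomas. The mean was 1.56% ± 2.75 (SD, n = 4) in carcinomas and 4.40% ± 4.20 (SD, n = 5) in lymphomas, with an exact permutation p of 0.270 (adjusted 0.315).

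The balance of loss and gain differed between the types. Loss minus gain was 10.5, 18.8, 34.3 and 9.17 percentage points in KO1080, KO1097, KO1134 and WT1179. It was 0 in KO1077, -0.616 in KO1111, -8.03 in WT1113, -8.72 in WT1114 and -4.01 in WT1121. Every carcinoma lost more than it gained and no treated lymphoma did. The means differed by 22.5 percentage points (exact permutation p = 0.00794, adjusted 0.0185). The call ended centred on the median (adjusted 0.111), with a threshold of 0.4 (adjusted 0.0833), without any 1 lymphoma (adjusted 0.05 to 0.0667) and with WT1113 and WT1114 as 1 (adjusted 0.05). In the runs with a lymphoma fewer the exact p was 0.0286, the smallest that their splits allow. Of the called sequence, loss made up 100%, 99.9%, 98.5% and 72.3% in the carcinomas in the same order, against at most 6.44% in a lymphoma with a call.

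**Figure D1:**
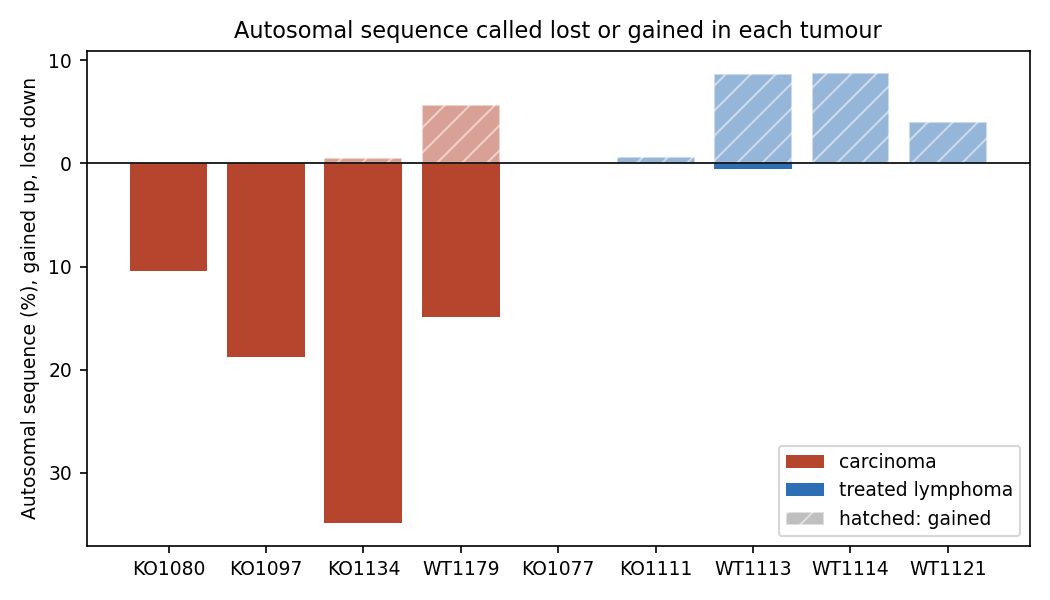
Percent of autosomal sequence called lost (solid bars, downwards) and gained (hatched bars, upwards) in each of the 9 tumours, 1 array per tumour and no error bars. The 4 carcinomas (red) reach 10.5% to 34.9% lost, and the highest treated lymphoma (blue) 0.593%.

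The mode as the zero point mattered most for KO1134. Its centre lay 0.066 log2 above the median of its autosomal probes, the largest such shift of the 9 arrays. With the median as zero, its losses slipped under the threshold and its lost share was 0%, while KO1080, KO1097 and WT1179 had 10.5%, 18.6% and 14.8%. The types then differed by 10.9 percentage points in lost sequence (exact permutation p = 0.0476, adjusted 0.111). Its 11 autosomes without a call averaged 0.002 under the mode, with an SD between chromosomes of 0.005. A chromosome without a call is one that lies near the mode, so these values cannot tell which zero point is right.

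Losses of whole or nearly whole chromosomes were the main form of change in the carcinomas. A chromosome-scale event was an autosome with at least 70% of its length called in 1 direction, also where separate stretches added up to it. KO1080 had 2, KO1097 4, KO1134 6 and WT1179 3. At the main threshold the treated lymphomas had 1, the gain of chromosome 15 in WT1113, over 96.7% of its length in 2 stretches at 0.34 and 0.40. With a threshold of 0.15 KO1111 had 2, WT1113 1 and WT1121 1, and the types differed by 2.95 events (exact permutation p = 0.0159, adjusted 0.037). With normexp background correction WT1113 and WT1121 had 1 each. At the main threshold the means were 3.75 ± 1.71 (SD, n = 4) and 0.2 ± 0.447 (SD, n = 5), with an exact permutation p of 0.00794 (adjusted 0.0185). This call ended centred on the median, by 2.05 events (adjusted 0.111), with a threshold of 0.4, by 2.25 events (adjusted 0.0833), and with the share of a chromosome set at 50% (adjusted 0.0556). It also ended without any 1 lymphoma (adjusted 0.05 to 0.0667) and with WT1113 and WT1114 as 1 (adjusted 0.05). In these runs too the exact p was 0.0286, the smallest that their splits allow. Of the untreated lymphomas, WT1405 had 4 chromosome-scale gains and KO1414 and WT1420 had 0, so events of this scale were not particular to carcinomas. Chromosomes 4 and 12 were lost at this scale in all 4 carcinomas. KO1097 added chromosomes 13 and 16, and KO1134 added 3, 8, 9 and 10. The chromosome 16 loss of KO1097 came in 3 separate stretches, together 79.7% of its length. The chromosome 3 loss of KO1134 came in 2 stretches around a gain, together 94.1%. WT1179 had the single chromosome-scale gain of a carcinoma, 78.3% of chromosome 15, next to a loss of the remaining 21.8 Mb at the end of the same chromosome.

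Chromosome 4 of KO1080 averaged -0.42, that of KO1097 -0.66, that of KO1134 -0.29 and that of WT1179 -0.71. In the lymphomas it averaged -0.02 in KO1077, 0.03 in KO1111, -0.11 in WT1113, 0.00 in WT1114 and -0.01 in WT1121. The low value of WT1113 came with a called loss of the last 13.8 Mb at -0.29. Chromosome 12 averaged -0.42, -0.62, -0.23 and -0.72 in the same carcinomas and between -0.01 and 0.06 in the lymphomas. In KO1134 its loss stopped at position 88912636 and the rest of the chromosome was not called. The difference was -0.50 for chromosome 4 and -0.53 for chromosome 12, and the groups did not overlap on either.

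Of the 19 autosomes, 4 were lower in the carcinomas by the exact permutation test (21.1% called): chromosomes 4, 10, 12 and 16, each with a p of 0.00794 (adjusted 0.0377). The number under an unadjusted p of 0.05 was 11. With any 1 of the 9 tumours left out, or with WT1113 and WT1114 counted as 1, 0 autosomes passed, and 4 to 9 had an unadjusted p under 0.05. The smallest exact permutation p in these runs was 0.0179 to 0.0286. At that floor an autosome passes the adjustment over 19 only if many others share it, so 0 passing cannot tell whether a result hangs on a tumour. Chromosomes 4 and 12 kept the smallest p in each of these runs. Chromosomes 10 and 16 rested on a single carcinoma each. Chromosome 10 averaged -0.28 in KO1134 and between -0.02 and 0.00 in the other carcinomas, and chromosome 16 averaged -0.49 in KO1097 and between 0.00 and 0.02 in the others. The lymphomas lay slightly above 0 on chromosome 10, between 0.01 and 0.05, and between 0.03 and 0.22 on chromosome 16. The mean difference was negative on all 19 autosomes. The chromosomes without a call averaged between -0.01 and 0.01 in the carcinomas and between 0.01 and 0.07 in the treated lymphomas, and the part of this offset in the result, apart from the alternative that follows, was not tested. With each array centred on its chromosomes without a call, a setting chosen after the data were seen, 0 autosomes passed and 4 had an unadjusted p under 0.05. Chromosomes 4, 12 and 16 then kept an exact permutation p of 0.00794 (adjusted 0.0503), and chromosome 10 had a p of 0.111 (adjusted 0.377).

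**Figure D2:**
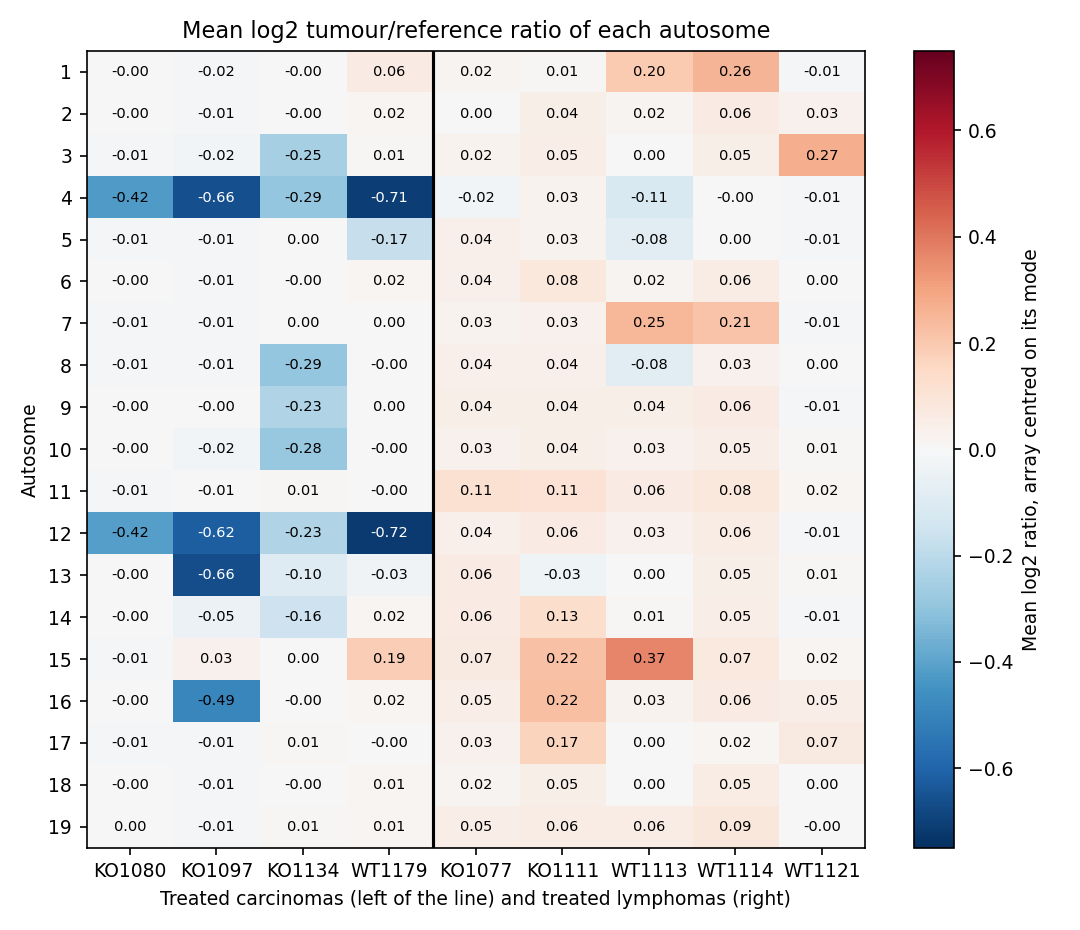
Mean log2 ratio of each autosome (rows) in the 4 carcinomas (left of the line) and 5 treated lymphomas (right), blue for loss and red for gain, with the value printed in each cell. Chromosomes 4 and 12 are blue in all 4 carcinomas, and the lymphoma columns hold mostly weak or red cells.

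Which further chromosomes were hit differed between the carcinomas. In all, 11 autosomes had a loss of at least 10 Mb in a carcinoma and 3 of them in more than 1 carcinoma, chromosomes 4, 12 and 13. On chromosome 13 KO1097 lost the whole chromosome, KO1134 the first 34.7 Mb and WT1179 an inner stretch of 18.5 Mb, and the last 2 did not overlap. Probes lost in all 4 carcinomas made up 8.55% of those read, and all lay on chromosomes 4 and 12. Another 32.3% were lost in a single carcinoma. No probe was gained in more than 1 carcinoma. In the treated lymphomas 1 autosome had a loss of at least 10 Mb, chromosome 4 in WT1113, and 6 autosomes had a gain of that size: 1, 2, 3, 7, 11 and 15. Probes gained in 2 lymphomas made up 4.78%, all on chromosomes 1 and 7 and in WT1113 and WT1114, the pair that may not be independent. The gain of chromosome 7 ended at position 133995167 in both and covered 50.8% of the chromosome.

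Stretches hit in both tumour types did not always change the same way. Of all probes, 44.5% were lost and 6.32% gained in a carcinoma, and 17.6% were gained in a treated lymphoma. Those lost in a carcinoma and gained in a lymphoma made up 3.60%, and those gained in both types 3.37%. Chromosome 15 was gained in WT1179 and in WT1113. KO1111 averaged 0.22 on chromosome 15, 0.22 on chromosome 16 and 0.17 on chromosome 17, all below the threshold. With the threshold at 0.15, KO1111 reached 13.9% gained and KO1077 1.72%, so part of the lymphoma gains lay below the main threshold. Loss at 0.15 covered 0.924% in KO1077, 0.320% in KO1111 and 2.45% in WT1113. It stayed at 0.0147% in WT1114 and 0% in WT1121.

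The large losses of each carcinoma sat at its own common level. The 2 losses of KO1080 read -0.42 each. The 9 losses of at least 10 Mb in KO1134, on 8 chromosomes, lay between -0.31 and -0.29, and their SD of 0.006 was about the size of their standard errors over 5-Mb blocks, 0.003 to 0.006. The 5 such losses of WT1179 lay between -0.72 and -0.71 with an SD of 0.005. In KO1097 they lay between -0.67 and -0.62. The shallowest of them was chromosome 12, whose first 13.9 Mb read -0.31 while the long stretches behind it read -0.66.

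Taken as the loss of 1 of 2 copies, these levels correspond on average to 50.5% of cells for KO1080, 72.2% for KO1097, 37.3% for KO1134 and 78.4% for WT1179. The estimate assumes diploid cells and ratios that the array does not compress, and it mixes the share of tumour cells in the sample with the share of those cells that carry the change. The threshold itself stands for 31.8% of cells for a loss and 37.8% for a gain, so changes in fewer cells were not called. Lymphoma gains of at least 10 Mb corresponded to 81.7% in KO1111, on average 56.2% in WT1113, 53.8% to 55.6% in WT1114 and 50.9% to 51.8% in WT1121. The highest share per tumour averaged 62.2% ± 21.5 (SD, n = 4) in carcinomas and 51.2% ± 30.9 (SD, n = 5) in lymphomas, where KO1077 counts as 0. The exact permutation p was 0.611, and the ranges overlapped.

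Some carcinomas had further levels beside the common one. In KO1097, a 6.67-Mb loss on chromosome 10 read -0.29 and a 3.20-Mb stretch of chromosome 16 also read -0.29, corresponding to 36.5% and 35.9% of cells, against 74.9% for the 60.7 Mb that followed on chromosome 16. The shallow start of chromosome 12 corresponded to 38.2%. KO1134 had stretches at 0.25 on chromosome 3, 0.23 on chromosome 9 and 0.21 on chromosome 10, of 5.26, 9.39 and 1.28 Mb. It also had steps of 3.96 Mb at 0.65 on chromosome 3 and 3.78 Mb at 0.62 on chromosome 9. Those steps exceed 0.58, the level of a single extra copy in every cell, although the losses of the tumour corresponded to at most 38.2% of cells. WT1179 had a 7.52-Mb step at 0.87 inside its chromosome 15 gain, whose other segments read 0.44 to 0.50.

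**Figure D3:**
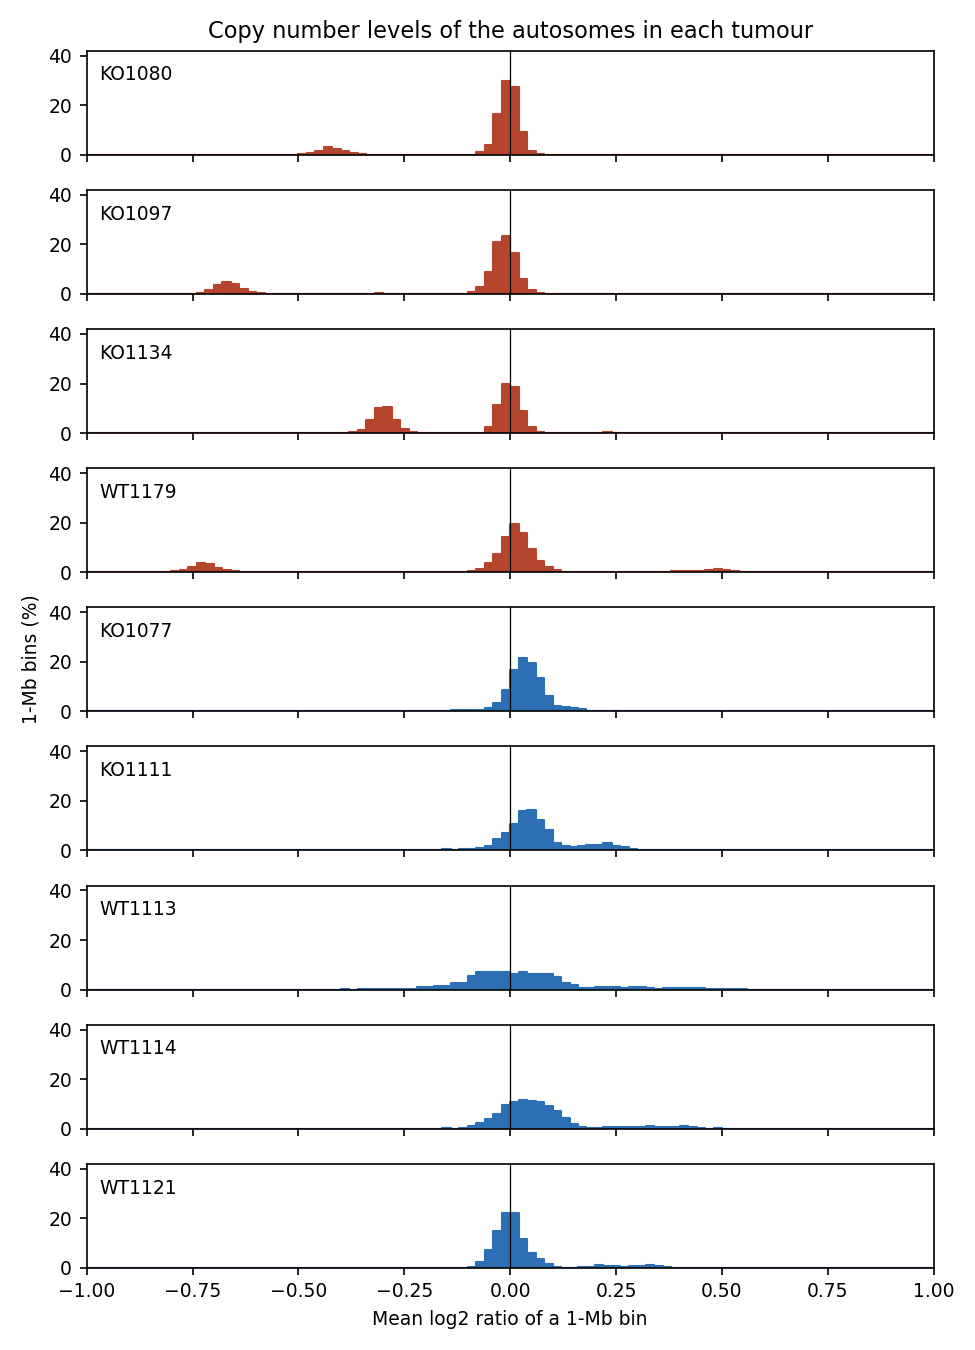
Share of 1-Mb autosomal bins (vertical axis, percent) at each mean log2 ratio (horizontal axis) in the 9 tumours, carcinomas in red and treated lymphomas in blue. Each carcinoma shows a separate lower peak, near -0.42, -0.65, -0.30 and -0.72 from top to bottom, and no treated lymphoma shows one; WT1113 and WT1114 have the widest main peaks.

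Event sizes ranged from under 0.1 Mb to whole chromosomes. The carcinomas held 35 losses and 13 gains, and 20 of the losses but 1 of the gains were at least 20 Mb long. The treated lymphomas held 3 losses and 13 gains, and 0 of the losses but 7 of the gains were at least 20 Mb long. The largest event of KO1080 was 137 Mb long, that of KO1097 116 Mb, that of KO1134 135 Mb and that of WT1179 134 Mb. In the lymphomas it was 10.6 Mb in KO1111, 75.9 Mb in WT1113, 131 Mb in WT1114 and 68.3 Mb in WT1121, and KO1077 had no event. WT1114, with the gain of the distal 131 Mb of chromosome 1, lay above KO1097, so the groups overlapped. The difference in means was 73.7 Mb, with an exact permutation p of 0.0317 (adjusted 0.0556). KO1097 had lost 99.96% of chromosome 4, but in 2 events, of 103 and 34.4 Mb. With a higher segmentation penalty, 20 times the logarithm, its largest event was 137 Mb. WT1114 stayed at 131 Mb there, below every carcinoma, and the types differed by 74.1 Mb (exact permutation p = 0.0397, adjusted 0.0667).

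Focal events, of at most 10 Mb, numbered 0, 4, 3 and 16 in KO1080, KO1097, KO1134 and WT1179 and 0, 1, 4, 1 and 0 in KO1077, KO1111, WT1113, WT1114 and WT1121. WT1179 stood far above the rest, and without it the carcinomas were within the range of the lymphomas. The means were 5.75 ± 7.04 (SD, n = 4) and 1.2 ± 1.64 (SD, n = 5), with an exact permutation p of 0.167 (adjusted 0.233). The focal events of WT1113 included gains of 5.57 and 4.60 Mb on chromosome 1, at 0.30 and 0.26. Other long stretches of that chromosome read 0.18 to 0.24 and were not called, so its count depends on the threshold. WT1113 had 8 focal events with a threshold of 0.15 and 2 with 0.4. KO1080 had 0 event ends inside a chromosome, KO1097 11, KO1134 13 and WT1179 44, against 0 to 14 in the lymphomas.

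Most of the ends in WT1179 came from chromosome 5, which was divided into 27 segments. It carried 18 events, 11 losses and 7 gains, and the direction changed 11 times along the chromosome. The 11 losses lay between -0.82 and -0.67 and the gains between 0.43 and 0.56, so the stretches alternated among a lost, an unchanged and a gained level. Together they covered 66.5 Mb of loss and 38.3 Mb of gain. No other chromosome of the 9 tumours had more than 4 events. Chromosome 16 of KO1097, with 12 segments and 4 events, was the most divided of the other carcinoma chromosomes.

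**Figure D4:**
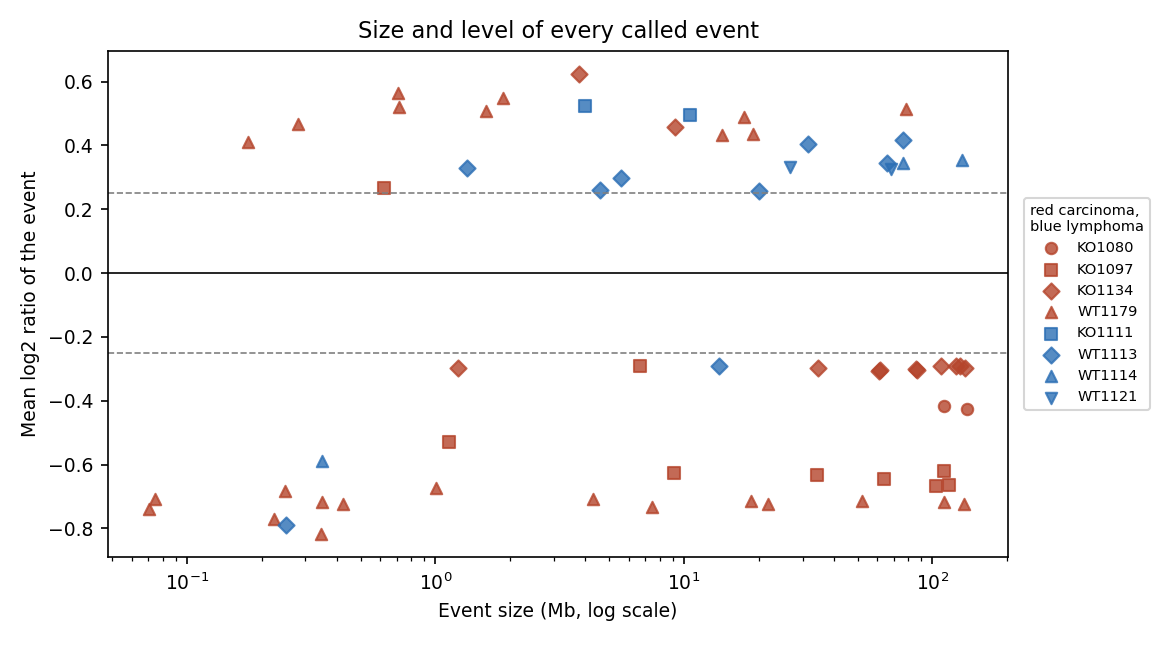
Size in Mb (log scale, horizontal) against mean log2 ratio (vertical) of every called event, red for carcinomas and blue for treated lymphomas with a marker shape per tumour, and dashed lines at the threshold of 0.25. The large losses of each carcinoma line up at its own level, and the large events of the lymphomas lie above 0 except for a 13.8-Mb loss at -0.29.

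The copy number of single genes followed these events. The mean ratio of the probes of each gene was compared between the types in limma with genotype as a further term, over 20281 autosomal genes. With Benjamini-Hochberg adjustment, 2460 genes were lower in the carcinomas, 12.1% of those tested, and 166 were higher, 0.819% of those tested. Chromosomes 4 and 12 held 75.6% of the lower genes. On chromosome 4, 1217 of 1383 genes were lower, and on chromosome 12 it was 642 of 738. Of the 1857 genes lost in all 4 carcinomas 1696 were lower, and of the 203 genes lost in 3 of them 134 were lower. The gene means come from the same arrays as the called losses, so these counts were largely set in advance and are no separate support. Genes lost in a single carcinoma rarely passed, with 239 of 6183 lower, although their median difference was -0.13. Among the 11610 genes that no carcinoma had lost, 382 were lower and 154 higher, and the median difference was -0.04. The median over all genes was -0.09, which includes the genes lost in carcinomas and so mixes their loss with any offset of the zero point. The 166 higher genes became 0 when each gene was given the mean of its segment in place of its own probes, with 14 at an unadjusted p under 0.05 in limma. The 2460 lower genes became 1227 without WT1179.

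Of 89 genes in 6 lists of cancer, iron and repair genes, 72 had probes. Losses of at least 10 Mb in a carcinoma covered 27 of the 72, and 9 of these were lost in all 4 carcinomas. Gains of that size in a treated lymphoma covered 9, and 36 lay in no such event of either type. By limma, 14 were lower in the carcinomas and none higher, with 26 of the 72 at an unadjusted p under 0.05. The lists were drawn up with results of these data known, so their counts support nothing beyond the background of 12.1%. Arid1a, Hif1a and Pax5 passed under every alternative run and with each tumour left out. So did Cdkn2c, on 1 probe, and Egln3, on 2 probes, but neither entered the fit of genes with at least 3 probes.

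Among genes of the cell cycle and the p53 response, 4 of 16 were lower and the median difference was -0.14. Cdkn2a, which encodes the inhibitors p16Ink4a and p19Arf, lies on chromosome 4 and read -0.44, -0.67, -0.26 and -0.81 in KO1080, KO1097, KO1134 and WT1179. In the lymphomas it lay between -0.13 and 0.03, with no overlap, and the fitted difference was -0.50 ± 0.11 (SE), with an adjusted limma p of 0.0152. Without WT1179 the difference was -0.34 and did not pass (adjusted limma p of 0.119). Cdkn2c, the inhibitor p18Ink4c, differed by -0.47 and Trp73, a relative of p53, by -0.37 (adjusted limma p of 0.00364 and 0.0372). Trp73 read -0.29 in lymphoma WT1113, inside its distal chromosome 4 loss, and there the groups overlapped. Its call ended centred on the median (adjusted limma p of 0.0898), with slide as a random block (0.0619) and without 1 of KO1080, KO1097, WT1179, KO1111, WT1114 or WT1121 (up to 0.208). Cdkn1a, the inhibitor p21 on chromosome 17, was the fourth, at -0.49 (adjusted limma p of 0.00279), but it rests on 1 probe and no tumour had a call on chromosome 17. With segment means it differed by -0.11 (adjusted limma p of 0.224). Rb1, the retinoblastoma gene, lay in the chromosome 14 loss of KO1134 and read -0.27 there and between -0.01 and 0.07 in the other carcinomas. Mdm2, an inhibitor of p53, and the checkpoint kinases Chek1 and Atm were likewise lost only in KO1134 among the carcinomas, at -0.32, -0.29 and -0.29, and did not pass. Mdm4, another p53 inhibitor, lay in the chromosome 1 gains of WT1113 and WT1114, at 0.29 and 0.42.

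In the renal carcinoma list 2 of 14 genes were lower, with a median difference of -0.11. Arid1a, a chromatin remodelling subunit on chromosome 4, read -0.36, -0.61, -0.22 and -0.68 in the carcinomas in the order above and between -0.02 and 0.09 in the lymphomas. The groups did not overlap, and the difference was -0.57 ± 0.09 (SE), with an adjusted limma p of 0.00308. Sdhb, a subunit of succinate dehydrogenase on the same chromosome, was in the losses of all 4 carcinomas, at -0.48, -0.62, -0.23 and -0.84. Its 2 probes also read low in lymphomas KO1077 and WT1113, at -0.39 and -0.35, and the difference of -0.36 did not pass (adjusted limma p of 0.107). Nf2, the merlin gene on chromosome 11, differed by -0.24 (adjusted limma p of 0.035). The lymphomas on slide 2 read 0.24 to 0.36, WT1121 read 0.05 and the carcinomas lay between 0.00 and 0.12. Its position lay in no called event. The call ended with slide as a random block (adjusted limma p of 0.0647), centred on the median (0.0983), with no genotype term (0.0608), with segment means (-0.13, 0.131) and without any 1 tumour other than KO1134 or WT1121 (up to 0.127). Setd2, a histone methyltransferase, and Smarcb1, another remodelling subunit, lay in the losses of KO1134, at -0.36 and -0.24. Fh1, fumarate hydratase, lay in the chromosome 1 gain of WT1114, at 0.48. Vhl, Pbrm1, Tsc1, Tsc2, Flcn, Met and Mitf lay in no event of at least 10 Mb in either type and did not pass, and are named after their values were seen.

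Of the hypoxia genes 2 of 7 were lower, both on chromosome 12, and the median difference was -0.10. Hif1a, the oxygen-regulated transcription factor subunit, read -0.45, -0.74, -0.38 and -0.79 in the carcinomas and between 0.04 and 0.34 in the lymphomas. Egln3, a prolyl hydroxylase that marks it for degradation, read -0.46, -0.66, -0.40 and -0.70 against -0.19 to 0.21. Neither gene overlapped between the groups. The differences were -0.76 ± 0.12 (SE) and -0.69 ± 0.10 (SE), with adjusted limma p of 0.00306 and 0.00258. Egln1, a second hydroxylase, lay in the chromosome 8 loss of KO1134 at -0.17. Arnt, the partner subunit of Hif1a, lay in the high step on chromosome 3 in KO1134, at 0.67, and in the chromosome 3 gain of lymphoma WT1121, at 0.38.

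Of the lymphoma genes 3 of 14 were lower in the carcinomas, with a median difference of -0.12. Pax5, a B cell transcription factor on chromosome 4, read -0.47, -0.69, -0.31 and -0.84 in the carcinomas and between -0.05 and 0.00 in the lymphomas over 17 probes. Its difference was -0.60 ± 0.10 (SE), with an adjusted limma p of 0.00371. Bcl11b, a T cell factor near the end of chromosome 12, was lost in 3 carcinomas, at -0.38, -0.60 and -0.66, and read 0.02 in KO1134, beyond the end of its loss (adjusted limma p of 0.0322). The call ended with slide as a random block (adjusted limma p of 0.058), centred on the median (0.073) and without any 1 tumour other than KO1134 or WT1121 (up to 0.188). Bcl6, a repressor of germinal centre B cells on chromosome 16, differed by -0.25 (adjusted limma p of 0.0301), with the lymphomas between 0.17 and 0.34 and no called event there. It did not pass with slide as a random block (adjusted limma p of 0.0565), centred on the median (0.0741), with normexp (0.137), with segment means (-0.09, 0.237) or without any 1 tumour other than KO1097, KO1134 or WT1121 (up to 0.119). Irf4, a factor of plasma cell differentiation, lay in the chromosome 13 losses of KO1097 and KO1134, at -0.57 and -0.27. Prdm1 and Tnfaip3, a plasma cell factor and an inhibitor of NF-kB, lay in the chromosome 10 loss of KO1134, at -0.31 each, and Tnfaip3 also in the 6.67-Mb loss of KO1097, at -0.34. A gain covered Bcl2, the inhibitor of apoptosis, in lymphoma WT1114, at 0.43. Rel, an NF-kB subunit, and Bcl11a, a B cell factor, lay in a 3.98-Mb gain at 0.52 on chromosome 11 of KO1111, and were singled out after their values were seen.

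In the iron and redox list 1 of 13 genes was lower, with a median difference of -0.07. Prdx1, a peroxiredoxin that reduces peroxides, read -0.38, -0.46, -0.12 and -0.72 in the carcinomas and between 0.07 and 0.36 in the lymphomas, with an adjusted limma p of 0.00784. It rests on 1 probe in the stretch around Mutyh that was left out of the segmentation, and it did not pass without WT1179 (adjusted limma p of 0.0633). Slc11a2, the iron transporter DMT1, went in opposite directions, lost in carcinoma WT1179 at -0.56 and gained in lymphoma WT1113 at 0.62 (adjusted limma p of 0.0835). Keap1, which holds the antioxidant regulator Nrf2 in check, and Nqo1, a quinone reductase, lay in losses of KO1134, at -0.29 and -0.12. Sod1, a superoxide dismutase, lay in the chromosome 16 loss of KO1097 at -0.53, and its single probe read 0.23 to 0.82 in the lymphomas. Hfe2, the hemojuvelin gene, and Cat, catalase, lay in gains of WT1121, at 0.34 and 0.48, with Hfe2 at 0.73 in the high step of KO1134, and Prdx6 in the chromosome 1 gain of WT1114, at 0.51.

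Of the genes for repair of oxidised bases 2 of 8 were lower, with a median difference of -0.15, and both rest on 1 probe. Ogg1, the glycosylase for 8-oxoguanine, read between -0.02 and 0.06 in the carcinomas and between 0.24 and 0.47 in the lymphomas, outside any called event (adjusted limma p of 0.0084). With segment means it differed by -0.04 (adjusted limma p of 0.312), and without WT1179 it did not pass (0.059). Ung, the uracil glycosylase, lay in a 7.43-Mb loss of chromosome 5 in WT1179, at -0.81, and between -0.18 and -0.05 in the other carcinomas (adjusted limma p of 0.0325). Lymphoma WT1121 read -0.27 there, so the groups overlapped. Ung did not pass with no genotype term (-0.27, adjusted limma p of 0.263), segment means (0.215), median centring (0.0758), normexp (-0.21, 0.0616) or slide as a random block (0.061). It also failed without 1 of KO1080, WT1179, KO1077, WT1113 or WT1114, and without WT1179 the difference was -0.22 (adjusted limma p of 0.186). Polb, the polymerase of short-patch repair, the glycosylase Neil3 and the glycosylase Neil2 lay in losses of KO1134, at -0.42, -0.21 and -0.16. Parp1, which binds strand breaks, lay in the chromosome 1 gain of WT1114, at 0.34.

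**Figure D5:**
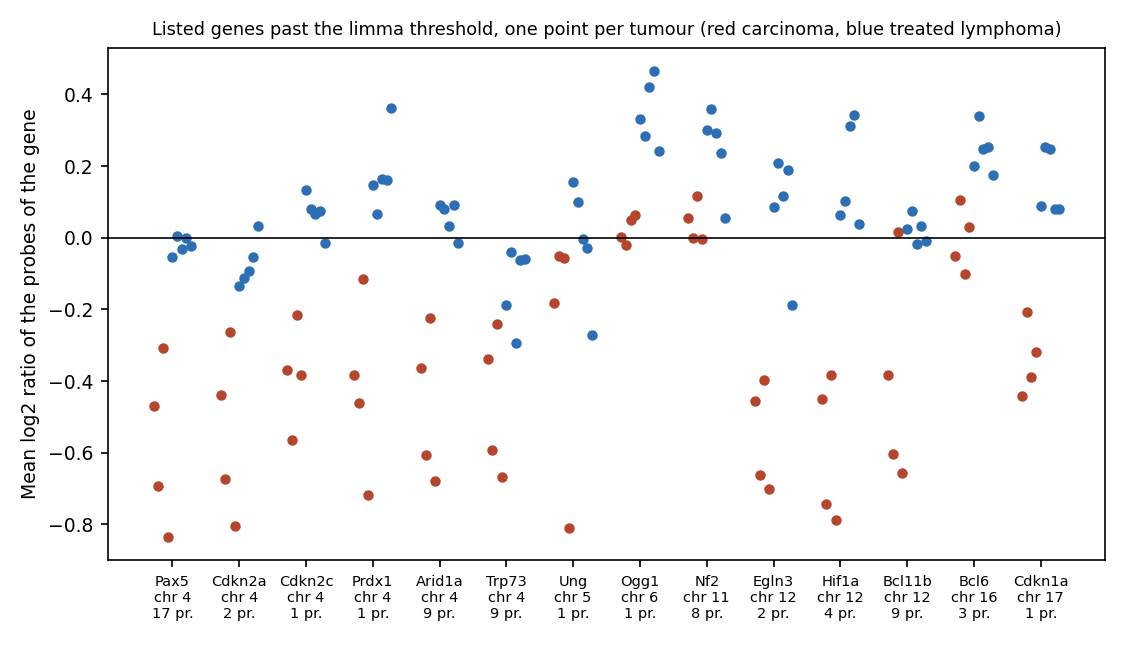
Mean log2 ratio of the probes of each of the 14 listed genes with an adjusted limma p under 0.05 (vertical axis), 1 point per tumour, red for carcinomas and blue for treated lymphomas, with the chromosome and the number of probes under each name. The carcinomas spread below 0 on chromosomes 4 and 12, apart from KO1134 at Bcl11b, whereas for Ogg1, Nf2 and Bcl6 the carcinomas lie near 0 and the lymphomas above it.

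Beyond the lists, genes with at least 3 probes were ranked by difference and the most extreme named, at most 2 from a chromosome. The transcript ENSMUST00000138291 on chromosome 4 read -0.97, -1.23, -0.88 and -1.25 in the carcinomas and between 0.02 and 0.11 in the lymphomas, a difference of -1.17 ± 0.09 (SE) with an adjusted limma p of 0.000586. Kif26a, an atypical kinesin on chromosome 12, read -0.91, -1.17 and -0.60 in KO1080, KO1097 and KO1134, against 0.00 to 0.15 in the lymphomas, a difference of -1.09. In KO1134 it lies beyond the end of the called loss. The values of both lay below the mean of their chromosome in every carcinoma, also in KO1134 at Kif26a, without a called loss. Each rests on 3 probes and was picked as among the most extreme of the genes tested, and all carcinomas share a slide. Whether the gap lies in the tumour DNA, the probes or the slide was not tested. With segment means, which hold only the level of the stretch, the differences were -0.56 for the transcript and -0.55 for Kif26a. Dcaf12, a ubiquitin ligase adaptor on chromosome 4, differed by -0.83. Slc30a5, a zinc transporter on chromosome 13, read -0.73 in KO1097 and -0.83 in WT1179, inside their losses, and -0.03 and 0.02 in KO1080 and KO1134. Ttll8, a tubulin ligase, and Cbx5, the heterochromatin protein HP1 alpha, lie at the end of chromosome 15 that WT1179 lost and WT1113 gained, at -0.71 and -0.69 against 0.67 and 0.68. Without WT1179, Slc30a5, Ttll8 and Cbx5 differed by -0.42, -0.36 and -0.32 and did not pass (adjusted limma p of 0.244, 0.197 and 0.221), nor did they with slide as a random block (0.0739, 0.0607 and 0.072). Vmn2r81, a vomeronasal receptor on chromosome 10, read between -0.29 and 0.14 in the carcinomas and between 0.36 and 0.71 in the lymphomas. Its difference of -0.63 became -0.12 with spots well above background only (adjusted limma p of 0.268), -0.15 with normexp (0.189) and -0.10 with segment means (0.312), and none of these passed.

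In the other direction the differences were smaller. Bfsp1, a lens filament protein on chromosome 2, read 0.19 to 0.29 in the carcinomas and -0.36 to -0.09 in the lymphomas, a difference of 0.39 ± 0.07 (SE) with an adjusted limma p of 0.00445. Bag3, a chaperone regulator on chromosome 7, read 0.35 to 0.47 against 0.08 to 0.21. Neither gene nor the transcript ENSMUST00000131730, which differed by 0.19, lay in a called event of a carcinoma. With segment means in place of gene probes the 3 differences turned to -0.04 for Bag3, -0.01 for Bfsp1 and -0.04 for ENSMUST00000131730, none of which passed, and with normexp Bag3 differed by 0.06 (adjusted limma p of 0.508). Arpc1a, an actin nucleation subunit, and Slc7a1, a transporter of basic amino acids, lie in the chromosome 5 gain of WT1179, at 0.43 and 0.41, and Csnk1e, a casein kinase, in its chromosome 15 gain, at 0.48. Without WT1179 these 3 did not pass (adjusted limma p of 0.112, 0.132 and 0.215). The 2 names on chromosome 6, DQ301919 and M23626, lie in the Igk interval. There the lymphomas KO1077, WT1113, WT1114 and WT1121 read -0.54 to -0.28 and KO1111 read -0.05 and -0.03, while the carcinomas read -0.05 to 0.11. Neither passed with slide as a random block (adjusted limma p of 0.0683 and 0.0853).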

How the data were processed

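Genomic DNA of each tumour was hybridised to an Agilent 2-colour array, tumour in red (Cy5) and normal kidney reference in green (Cy3), per the labels. The deposited intensity values are processed signals from Feature Extraction 10.7.1.1 (Agilent), background-subtracted and dye-normalized, per the file headers, with probe positions in build mm9. The deposited log10 ratio column and the series-wide table of log2 ratios that the authors deposited served as alternatives.

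Red was divided by green per probe and the log2 taken, outlier spots were left out and repeats averaged. Arrays were centred on the mode of autosomal probes (bandwidth 0.05). Antigen receptor loci, the stretch around Mutyh and an interval of chromosome 14 were left out, 8 intervals in all. Penalised least squares segments (penalty 10 times the logarithm of the probe number times the noise variance) were called from 0.25 over 5 probes, and neighbours of a direction joined. Segmentation and limma were tested on simulated data.

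Means per tumour were compared by two-sided exact permutation, with Benjamini-Hochberg adjustment over 7 measures or 19 autosomes. Gene means were fitted in limma (version 3.58.1, R version 4.3.3) with lmFit and eBayes. Other centrings, thresholds, penalties, filters and sample sets, and each tumour left out, were tried. Named genes are the listed ones that lie in an event of at least 10 Mb or pass, and the 8 lowest and 8 highest by difference (at least 3 probes, at most 2 per chromosome). The tumours, lists and rules were chosen with earlier results of these data known. P-values measure the spread between these animals, and precision is limited by the number of arrays. No probe sequences were used. Values of some genes that the rule names are not reported here.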

Additional observations from a re-analysis of the deposited data

Results flagged for a closer look

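A tumour was taken as standing apart where its gap to the nearest other tumour of its type made up an unusually large part of the range of the type. Of 52 groups of values examined, 15 held such a tumour, 10 of them among the carcinomas. For independent groups chance would give about 1 in 20. These groups share tumours and calls, and a chromosome changed in only 1 tumour of a type tends to be flagged. The count therefore cannot be read against that rate. WT1179 stood apart from the other carcinomas in gained sequence (5.68%), on chromosome 1 (mean 0.064) and on chromosome 5 (-0.17). KO1134 stood apart on chromosomes 3 (-0.25), 8 (-0.29), 9 (-0.23) and 10 (-0.28), and KO1097 on chromosomes 13 (-0.66) and 16 (-0.49) and in its largest event (116 Mb, the smallest of the 4). With the higher segmentation penalty the largest event of KO1097 was 137 Mb. Among the treated lymphomas WT1113 stood apart in lost sequence (0.593%), chromosome-scale events (1) and focal events (4), WT1121 on chromosome 3 (0.27) and KO1111 on chromosome 16 (0.22).

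The Y chromosome, outside the comparisons of autosomes, read low in 3 of 4 carcinomas and 1 of 5 treated lymphomas. Its mean was -0.52 in KO1097, -0.57 in KO1134, -1.93 in WT1179 and -0.41 in KO1111, and between -0.04 and 0.00 in the other 5 tumours. Among the untreated lymphomas it was -0.54 in KO1414, -0.86 in WT1405 and -0.10 in WT1420, so low values also occurred there. As the loss of a single copy, these values correspond to 30.5%, 32.5%, 73.7% and 24.8% of cells. The shares for WT1179 and KO1134 lay near those of their autosomal losses, 78.0% to 79.0% and 36.4% to 38.2%, while that of KO1097 was well below its 69.8% to 74.1%.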

How the results depend on the processing

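Lost sequence, loss minus gain and chromosome-scale events kept their direction under every alternative run, and their side of the threshold depended on the zero point, the threshold and the number of tumours. Centred on the median, they differed by 10.9 and 12.98 percentage points and 2.05 events (each adjusted p 0.111), 0 autosomes passed (3 unadjusted) and 334 genes were higher. With a threshold of 0.4 they differed by 10.8 and 9.94 percentage points and 2.25 events (each adjusted p 0.0833), and gained sequence turned to 0.826 percentage points more in carcinomas (exact p 0.643). With chromosome-scale set at 50% the difference was 3.2 events (adjusted p 0.0556). With WT1113 and WT1114 as 1 tumour they differed by 19.7 and 21.4 percentage points and 3.62 events (each adjusted p 0.05, not under the threshold). The number of autosomes that passed was 0 there (6 unadjusted), 0 with normexp (4), 0 with labels permuted within genotype (5) and 0 centred on chromosomes without a call (4), a setting added with the results in view (chosen after seeing the data). The smallest exact p was 0.0286 with the pair as 1 tumour and 0.025 within genotype, where a few autosomes alone cannot pass. The difference in largest event passed at 76.1 Mb with the lower penalty, 84.8 Mb with no region left out, 92.9 Mb within genotype and 84.7 Mb centred on chromosomes without a call. With at least 3 probes per gene, 1033 genes were lower and 15 higher, fewer genes being tested. Higher genes numbered 97 with slide as a random block and 0 with segment means (14 unadjusted), where Bag3 turned to -0.044, Bfsp1 to -0.0086 and ENSMUST00000131730 to -0.039. Where no cause is given, the cause was not tested.

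With each tumour left out in turn, lost sequence differed by 14.6 to 22.7 and loss minus gain by 17.1 to 25.5 percentage points, chromosome-scale events by 2.8 to 4.13, focal events by 1.13 to 6.47, the largest event by 59.4 to 92.2 Mb and gained sequence by -4.20 to -1.75. The highest cell share differed by -1.81 (without KO1077) to 18.998 percentage points (without KO1134). The number of autosomes that passed was 0 to 0, lower genes 1227 (without WT1179) to 3182 (without WT1121), and higher genes 73 to 224 (the same tumours). The exact test cannot go below 0.0179 without a carcinoma or below 0.0286 without a lymphoma, so adjusted p-values rise through the fewer splits alone. No paired analysis was possible because the numbers name animals and no number occurs in both types. The signal was well above background for nearly all spots, and changes in fewer cells than the threshold stands for were not called.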
